A study of Mus musculus with 6 samples.

Results

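The 7 genes described here are Tcf7, Lef1, Satb1, Id2, Id3, Tcf3 and Tcf12, which encode TCF, E protein, Id and SATB1 regulators of T cells. The regions studied were the ATAC-seq peaks overlapping the RefSeq span of each gene or 10 kb on either side (mm10), merged over the libraries into 76 regions of 64817 in the whole series. ATAC-seq marks open chromatin by the insertion of sequencing adapters by the transposase Tn5. The cells were regulatory T cells (Tregs), sorted as CD4+CD25+GITR+ from lymph nodes draining a B16.F10 melanoma, a transplanted mouse tumour line, 14 days after 300000 tumour cells were given subcutaneously. There were 3 libraries from il33-/- mice on a C57BL6 background (KO, replicates 1, 2 and 4), which lack the cytokine interleukin-33 in the whole animal, and 3 from C57BL6 mice (WT, replicates 2, 4 and 6), all tumour-bearing. Neither the age of the mice nor whether each library came from a separate mouse is given in the labels, so the spread between libraries may be technical.

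Tcf7 encodes TCF-1 and Lef1 its close relative, DNA-binding proteins that act with beta-catenin in Wnt signalling and are known for their part in naive and memory-like T cells. Tcf3 (E2A) and Tcf12 (HEB) encode E proteins, basic helix-loop-helix factors that bind E boxes. Id2 and Id3 encode helix-loop-helix proteins without the DNA-binding part, which pair with E proteins and keep them off DNA, and which are known to restrain the follicular program in Tregs. Satb1 encodes a chromatin organiser needed early in Treg development and held down by Foxp3 in mature Tregs.

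After filtering, KO replicates 1, 2 and 4 kept 8211188, 4724339 and 10313493 tags, against 13063056, 12927881 and 15229290 in WT replicates 2, 4 and 6. Depth thus ran with genotype, without overlap, and the effects of depth and of genotype cannot be told apart below. The KO lists held 40804 ± 3068 peaks and the WT lists 54009 ± 1685 (SD, n = 3 each), a ratio of 0.756. At 5 Treg markers (Foxp3, Il2ra, Tnfrsf18, Ctla4 and Ikzf2) there were 38 to 40 peaks per KO and 50 to 55 per WT library, and all 5 had a peak in every library. At 3 B cell markers there were 3 to 4 peaks per KO and 5 to 8 per WT library, and at Cd8a and Cd8b1 2 per KO and 3 to 4 per WT library. At Cd3e and Cd4 there were 8 to 10 and 9 to 10. At 3 myeloid markers there were 4 to 7 and 7, and at 4 melanoma markers 5 and 5 to 6. Ms4a1, Lyz2, Tyr and Dct had no peak in any library. Marker peaks were counted over each gene span with 10 kb on either side, so they can lie at neighbouring genes. The part of other cell types in the results was not tested.

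Printed here are the 300-base windows around annotated starts (250 bases before to 50 after, RefSeq on GRCm38.p6, the assembly behind mm10) that held the peak summit of all 6 libraries, at Satb1, Id2, Id3 and Tcf12, and start number 3 of Lef1, which lay almost wholly within the tallest Lef1 region. The tallest region of each of these 5 genes covers the window or most of it. The same holds for the start window of Tcf3, which is not printed here. Capitals mark the E box letters CAGCTG and CACCTG, searched on both strands. The TCF and LEF letters CTTTGAA, or CTTTGAT, or CTTTGTA, or CTTTGTT were searched on both strands too and occur in none of these 5 windows. The windows lie at chr17:51833241-51833540 (minus strand) for Satb1, chr12:25096043-25096342 (minus) for Id2, chr4:136143572-136143871 (plus) for Id3, chr9:72111770-72112069 (minus) for Tcf12 and chr3:131112541-131112840 (plus) for Lef1.
Satb1: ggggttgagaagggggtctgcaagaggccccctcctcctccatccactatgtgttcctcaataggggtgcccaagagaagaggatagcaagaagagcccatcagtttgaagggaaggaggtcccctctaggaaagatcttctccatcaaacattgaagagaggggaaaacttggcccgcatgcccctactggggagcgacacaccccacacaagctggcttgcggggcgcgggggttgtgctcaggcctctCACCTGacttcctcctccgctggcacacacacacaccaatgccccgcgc
Id2: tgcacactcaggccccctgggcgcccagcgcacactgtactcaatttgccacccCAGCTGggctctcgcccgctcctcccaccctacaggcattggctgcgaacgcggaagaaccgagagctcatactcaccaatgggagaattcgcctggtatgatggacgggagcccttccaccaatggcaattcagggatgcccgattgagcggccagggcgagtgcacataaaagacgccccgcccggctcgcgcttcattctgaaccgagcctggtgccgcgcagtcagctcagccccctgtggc
Id3: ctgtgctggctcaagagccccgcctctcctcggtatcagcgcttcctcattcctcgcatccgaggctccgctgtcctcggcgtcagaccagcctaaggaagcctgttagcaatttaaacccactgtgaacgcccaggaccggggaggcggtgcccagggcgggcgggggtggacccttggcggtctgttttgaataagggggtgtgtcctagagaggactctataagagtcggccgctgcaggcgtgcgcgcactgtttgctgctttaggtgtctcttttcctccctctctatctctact
Tcf12: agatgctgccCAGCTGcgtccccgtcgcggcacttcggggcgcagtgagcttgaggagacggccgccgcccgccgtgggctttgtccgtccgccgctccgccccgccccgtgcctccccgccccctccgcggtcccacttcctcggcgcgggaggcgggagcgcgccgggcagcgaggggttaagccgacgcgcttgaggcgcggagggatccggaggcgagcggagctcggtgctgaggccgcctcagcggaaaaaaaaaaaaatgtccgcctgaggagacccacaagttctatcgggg
Lef1: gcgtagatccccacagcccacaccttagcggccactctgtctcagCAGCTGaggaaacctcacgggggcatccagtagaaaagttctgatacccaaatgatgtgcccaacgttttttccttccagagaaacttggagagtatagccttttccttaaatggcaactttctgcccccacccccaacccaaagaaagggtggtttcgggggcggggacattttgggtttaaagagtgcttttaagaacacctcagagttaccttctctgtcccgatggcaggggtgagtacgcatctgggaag

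The 7 genes have 17 annotated start windows, of which 8 lay under a peak in all 6 libraries, against 33.7% of 32817 windows of all genes, and 5 under a peak in none, against 58.4%. An E box of these letters occurs in 8 of the 17 windows and in 33.0% of all windows, and a TCF and LEF motif in 4 of the 17 and in 16.9% of all. Counted from the annotated start, the first base of the E box stood at position -196 at Id2, -240 at Tcf12, -205 at start 3 of Lef1 and 2 at Satb1. The Id3 window holds none of the letters searched. Of the 4 windows with a TCF and LEF motif, 2 are overlapping windows of Satb1 that share 1 copy. A match is a description of letters and shows no binding.

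Peak height is the deposited pileup, the number of extended tags over the summit, divided here by the median pileup of the same list, so that 1 is a middling peak. The tallest region of a gene, by the mean over the 6 libraries, overlapped an annotated start window for 6 of the 7 genes, the exception being Tcf7. At Lef1 and Tcf3 no library had its summit in that window. The median summits stood at -606 and -424 bases from the nearest start, that of Tcf3 at -0.0825 kb from the 5′ end of the gene span. Distances in kb are from the 5′ end of the annotated gene span, along the direction of transcription. The order of the tallest regions was Tcf3, Id2, Id3, Lef1, Tcf7, Satb1 and Tcf12 by the KO means. In KO libraries the values of Id2 and Id3 overlapped, as did those of Satb1 and Tcf12, while the other neighbours in this order were separate. In WT libraries Id3 overlapped with Lef1, and Tcf7, Satb1 and Tcf12 overlapped with each other, with the Lef1 mean above that of Id3 and the Tcf12 mean above that of Satb1.

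**Figure D1:**
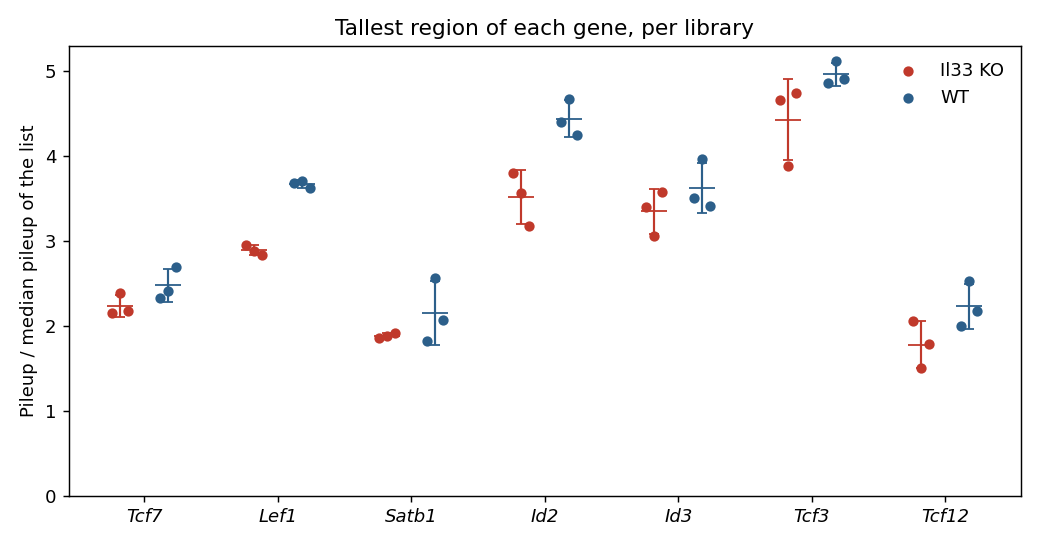
Scaled pileup (pileup over the median of the list, y axis) of the tallest region of each gene (x axis), with 1 point per library, KO left and WT right, and bars for mean and SD (n = 3 each). Tcf3 stands highest in both genotypes, and at Lef1, Id2 and Tcf3 the 3 KO points lie below the 3 WT points, an offset that also holds for 48.2% of all regions called in all 6 libraries.

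Of the E proteins, Tcf3 had 1 region at its own start (chr10:80433512-80434501), among the strongest of each list by significance (mean within-list percentile 98.9). Its scaled pileup was 4.65, 3.88 and 4.74 in KO replicates 1, 2 and 4, against 4.86, 5.11 and 4.90 in WT replicates 2, 4 and 6. Every KO value was below every WT value, with means of 4.42 ± 0.475 and 4.95 ± 0.137 (SD, n = 3 each). When pileups were divided by the median of the regions called in all 6 libraries instead, the order turned round, with every KO value above every WT value. The other 2 regions in the Tcf3 window cover the starts of the neighbouring genes Mbd3 and Uqcr11, so the Tcf3 gene body itself held no other peak in any library. The region at Uqcr11 had 2.85, 2.5 and 2.52 in KO and 3.04, 3.41 and 3.31 in WT libraries, without overlap.

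Tcf12, which spans 268 kb, had 19 regions, the tallest over its 2 upstream starts (chr9:72110678-72112559), with 2.05, 1.5 and 1.78 in KO against 2.00, 2.52 and 2.17 in WT libraries. These values overlapped between the genotypes. Peaks covered 937 to 1219 bp of that region in KO and 1666 to 1822 bp in WT libraries. The other regions of Tcf12 were low, the highest single value being 1.30. In all 6 libraries 6 of the 19 were called, among them one at start 3, 215 kb into the gene, where the values were 0.65, 0.625 and 0.739 in KO and 0.714, 0.667 and 0.897 in WT libraries. A region 237 kb into the gene (chr9:71874098-71874993) had 0.6, 0.688 and 0.435 in KO and 0.75, 0.741 and 0.793 in WT libraries, and was the single Tcf12 region of the 6 that did not overlap.

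Id2 and Id3 are short genes of 2.29 and 1.57 kb, each with 3 regions. At the Id2 start (chr12:25095231-25096589) the scaled pileup was 3.80, 3.56 and 3.17 in KO and 4.39, 4.67 and 4.24 in WT libraries. The groups did not overlap, with means of 3.51 ± 0.316 and 4.43 ± 0.216 (SD, n = 3 each), and the 6 summits lay within 12 bp of each other. A region 3.66 kb past the Id2 start had 1.80, 1.38 and 1.61 in KO and 2.18, 2.41 and 1.90 in WT libraries, again without overlap. The remaining region, at -2.82 kb, was called in 1 KO and all 3 WT libraries.

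At the Id3 start (chr4:136143515-136145029) the values were 3.40, 3.06 and 3.57 in KO and 3.50, 3.96 and 3.41 in WT libraries, so the groups overlapped. The summits lay within 22 bp of each other, at the start itself. A region 4.06 kb past the Id3 start had 1.90, 1.94 and 1.87 in KO against 2.32, 2.63 and 2.41 in WT libraries, without overlap. A weak region at -9.05 kb was called in 2 KO and 3 WT libraries.

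Of the TCF genes, Tcf7 had 10 regions, and its tallest by the mean over all 6 libraries lay inside the gene at 17.6 kb (chr11:52265578-52266300), with 2.15, 2.38 and 2.17 in KO and 2.32, 2.41 and 2.69 in WT libraries. Neighbouring regions at 14.7 and 7.80 kb were also called in all 6 libraries, with KO means of 1.79 and 1.96 against WT means of 2.0 and 2.52, and all 3 regions overlapped between the genotypes. The region at 7.80 kb was thus the taller by WT mean, and in KO replicate 1 and WT replicates 4 and 6. The 2 annotated starts of Tcf7 were weak in comparison. The merged region that overlaps the first start window was called in 2 KO and 3 WT libraries at values of 1.0 to 1.56. The peak reached that start window itself in only 1 library, a WT one. The median summit of this region stood at -392 bases from that start, but at -0.0230 kb, next to the 5′ end of the gene span. The region at the second start was called in 2 KO and 1 WT library at 1.0 to 1.39. The mean within-list percentiles of these 2 regions by significance, not by height, were 14.4 and 15.5. Another region called in all 6 libraries, downstream of Tcf7, lies inside the neighbouring gene Skp1.

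Lef1, which spans 114 kb, had 23 regions, and 5 of them were called in all 6 libraries. That number was above that of 99.3% of protein-coding genes with a peak, without adjustment for gene length. The numbers of Tcf12, Satb1 and Tcf7 were above those of 98.7%, 97.5% and 93.9%. The tallest (chr3:131111801-131112830) had 2.95, 2.88 and 2.83 in KO and 3.68, 3.70 and 3.62 in WT libraries, with no overlap (2.88 ± 0.0624 and 3.67 ± 0.0426, SD, n = 3 each). Nearly as tall was a region inside the gene, 98.4 kb from the first start (chr3:131207822-131209264), with 2.85, 2.25 and 2.74 in KO and 3.61, 3.30 and 3.07 in WT libraries, also without overlap. A region at 7.72 kb had 1.95, 1.38 and 2.13 in KO and 1.57, 1.56 and 1.69 in WT libraries, where 2 KO values were above and 1 below all WT values. The first 2 annotated starts of Lef1 lay under no peak in any library.

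Around the Lef1 start and at 46.2 to 49.4 kb, 4 regions were called in every WT and no KO library. Those at 1.12 kb (chr3:131111131-131111645) and 2.92 kb (chr3:131113108-131113363) flank the tallest region, with WT values of 1.86, 2.19 and 1.83 and of 1.89, 2.41 and 2.03. The others (chr3:131156413-131156729 and chr3:131159606-131159866) lie on either side of a region called in all 6 libraries, with WT values of 1.43, 1.63 and 1.55 and of 1.39, 1.26 and 1.17. Although taller than the median peak, all 4 stood only 2.34 to 3.15 times above the local background, where the median peak of each WT list stood 6.19 to 6.32 times above it. Their WT peaks were 208 to 492 bp long, and the shortest peak in every list was 200 bp. The mean within-list percentiles of the 4 by significance were 16.0 to 30.4, and all 4 were lost as WT-only regions when the lists were cut to equal length.

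**Figure D2:**
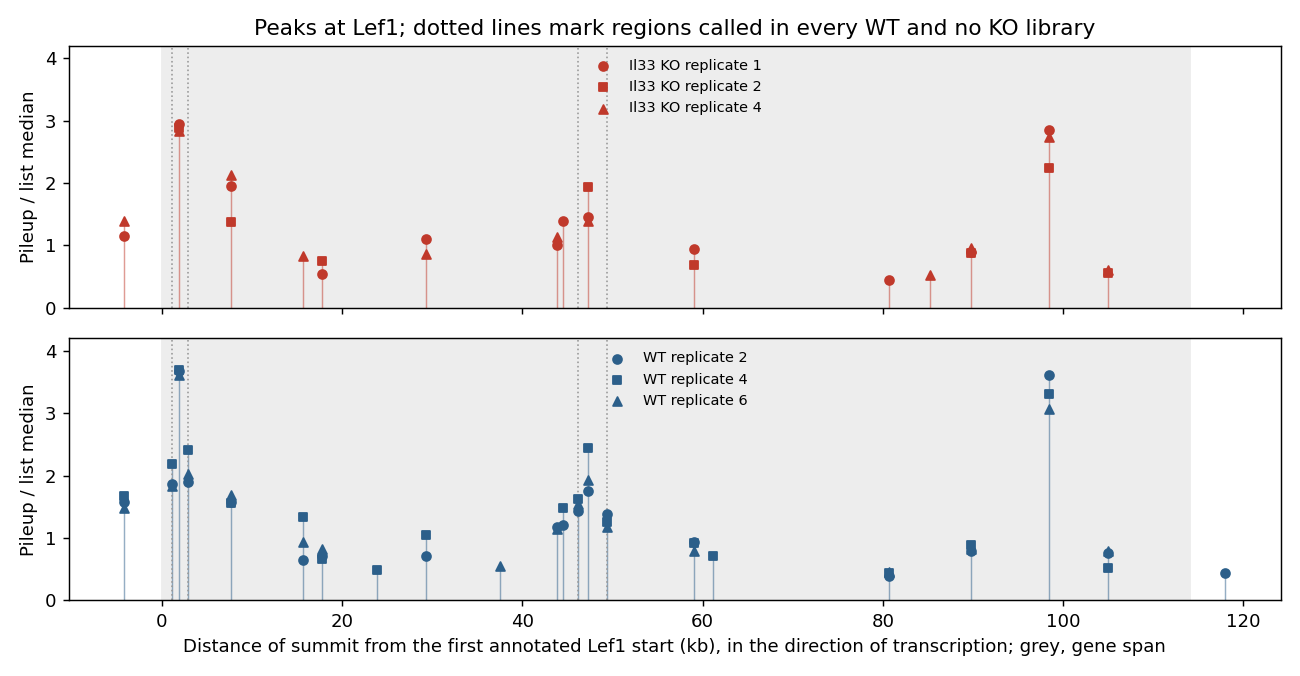
Scaled pileup (y axis) of each peak at Lef1 against the distance of its summit from the first annotated start in kb (x axis), KO libraries above and WT libraries below, with 1 marker shape per library and the gene span in grey. The tallest regions at 1.89 and 98.4 kb appear in all 6 libraries, while the 4 positions with dotted lines carry markers in the WT panel alone.

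Satb1 had 15 regions, 4 of them in all 6 libraries. Its tallest lay at the first start (chr17:51832910-51833630), with 1.85, 1.88 and 1.91 in KO and 1.82, 2.56 and 2.07 in WT libraries, which overlapped. Next to it, the region at the second start (chr17:51831381-51832768) was called in KO replicate 1, at 1.10 over 243 bp, and in all WT libraries, at 1.54, 1.74 and 1.90 over 1226, 1316 and 1090 bp. The region at the third start was called in 2 KO and 3 WT libraries. One region downstream of the gene (chr17:51735452-51735890) was called in every WT and no KO library, at 0.464, 0.667 and 0.759, below the median of each list. A region 69.6 kb into the gene (chr17:51763365-51763978) had 0.70, 0.625 and 0.739 in KO and 0.929, 0.963 and 1.03 in WT libraries, without overlap.

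At Lef1 and Satb1 each KO library had fewer peaks than any WT library, 2 of the 7 genes, where 15.5% of 16242 protein-coding genes with a peak showed the same and 0.388% the reverse. Lef1 had 13, 8 and 13 peaks in KO and 20, 20 and 19 in WT libraries (11.3 ± 2.89 and 19.7 ± 0.577). Satb1 had 9, 5 and 6 peaks in KO and 12, 11 and 14 in WT libraries (6.67 ± 2.08 and 12.3 ± 1.53, SD, n = 3 each). For both, the two-sided exact permutation test gave p = 0.1, the smallest p that 3 against 3 libraries allow, and a Benjamini-Hochberg adjusted p of 0.629 over all genes. No gene of the 16242 (0%) had an adjusted or an unadjusted p below 0.05. Tcf12 had 10.3 ± 1.53 peaks in KO and 14.0 ± 2.0 in WT libraries (exact permutation p = 0.2, adjusted 0.985) and Tcf7 7.33 ± 0.577 and 8.0 ± 1.0 (exact p = 0.7). Id2 had 2.67 ± 0.577 and 3.0 ± 0, Id3 2.67 ± 0.577 and 3.33 ± 0.577, and Tcf3 3 peaks in each library.

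When lists were cut to the length of the shortest, 37266 peaks by significance, Lef1 had 10, 8 and 11 peaks in KO and 7, 9 and 11 in WT libraries, and Satb1 7, 5 and 5 in KO and 5, 6 and 9 in WT libraries, so that both overlapped. None of the 7 genes was separated then, where 1.70% of all genes were lower and 1.84% higher in every KO library. Per 10000 peaks of the full lists, Lef1 was lower in every KO library, with 2.75 ± 0.524 in KO and 3.64 ± 0.0988 in WT (exact permutation p = 0.1, n = 3 each). Satb1 overlapped on this scale, with 1.62 ± 0.434 and 2.29 ± 0.343. Tcf3, with a constant 3 peaks, took a larger part of every KO list (0.738 ± 0.0580 in KO and 0.556 ± 0.0171 in WT per 10000). The share of all genes separated per 10000 peaks was not counted, so Lef1 and Tcf3 cannot be set against it.

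**Figure D3:**
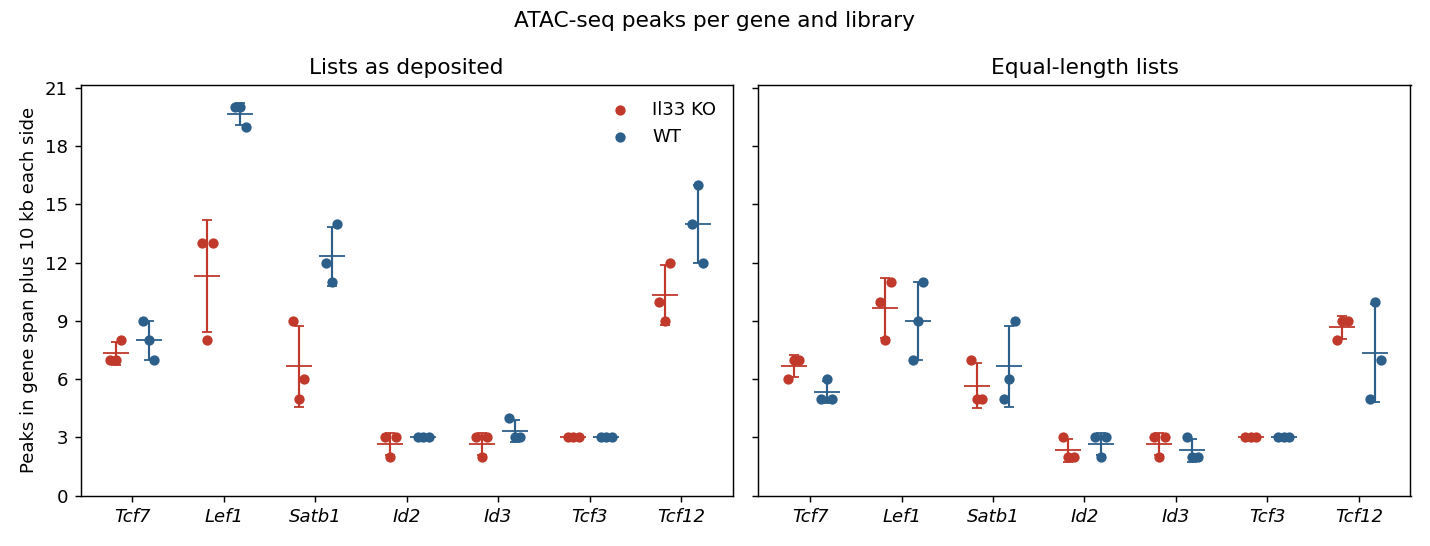
Peaks per gene and library (y axis) in the lists as deposited (left panel) and in equal-length lists (right panel), with KO left and WT right for each gene, 1 point per library, and bars for mean and SD (n = 3 each). The gaps at Lef1 and Satb1 in the left panel close in the right one, where Lef1 has 9.67 ± 1.53 peaks in KO and 9.0 ± 2.0 in WT libraries.

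Each KO library had fewer bases under peaks than any WT library at 5 of the 7 genes (Tcf7, Lef1, Satb1, Id2 and Tcf12), as at 65.5% of all genes. Satb1 had the lowest ratio, with 2736, 1865 and 2426 bp in KO and 6496, 5903 and 6857 bp in WT libraries, a ratio of 0.365. Over the windows of all genes the ratio was 0.715. Lef1 had a ratio of 0.623, Tcf12 0.619, Tcf7 0.661, Id2 0.725 and Id3 0.734, and Tcf3 1.02, with 3076 ± 269 bp in KO and 3030 ± 129 bp in WT libraries (SD, n = 3 each).

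Of the 76 regions, 26 (34.2%) were called in all 6 libraries, where 45.4% of all 64817 regions were. WT-only regions, called in every WT and no KO library, numbered 5 (6.58%, against 4.66% of all regions), namely the 4 at Lef1 and 1 at Satb1. KO-only regions numbered 0, where 0.0185% of all regions were KO-only. Another 16 regions (21.1%, against 17.1% of all) were called in all WT and some KO libraries, and 17 (22.4%, against 20.9%) in some WT and no KO libraries. None was called in all KO but not all WT libraries, where 0.481% of all regions were. In some KO and no WT libraries there were 2 (2.63%, against 3.15%), weak regions in Lef1 and in Tcf12 called in a single KO library each. Leaving out a library loosens the rule and gave 9 WT-only regions without KO replicate 1, 8 without KO replicate 4 and 8 without WT replicate 2. In equal-length lists 1 region was WT-only, that at the second start of Satb1 (0.966% of all regions), and 2 were KO-only, both inside Tcf12 (0.415% of all regions). In the full lists the Satb1 region had also been called in a KO library, and both Tcf12 regions in all 6.

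Among the 26 regions called in all 6 libraries, 9 (34.6%) had a scaled pileup that was lower in each KO library than in any WT library, where 48.2% of 29419 such regions did, and 0 a pileup that was higher in each KO library, where 0.197% did. The median log2 ratio of KO to WT was -0.25 for the 26 and -0.31 for all. Dividing by the median over the regions called in all 6 libraries instead, which was 20 to 30 tags in KO and 45 to 47 in WT libraries, moved the median of all regions to 0.04 and that of the 26 to 0.10. The 0.04 follows from this scaling, which gives each library the same median over all such regions. On this scale 0 of the 26 were lower in every KO library (6.90% of all) and 8 were higher in every KO library (13.7% of all). A weak region enters this comparison only where every shallow KO list called it. Without KO replicate 2, 30 regions were called in all libraries left, and by the list median 14 were lower and 4 higher. Of 26 without WT replicate 2, 16 were lower and 1 higher, and of 26 without WT replicate 4, 1 was higher. Leaving out a library loosens the rule, and shares of all regions were not counted in these settings.

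The 8 regions higher in every KO library on the shared scale were 2 of Lef1, 2 of Tcf12, 2 in the Tcf3 window, 1 at Id3 and the one downstream of Tcf7. At Lef1 the region at 7.72 kb had 1.44, 1.10 and 1.63 in KO and 0.978, 0.894 and 1.04 in WT libraries, and that at 89.8 kb 0.667, 0.70 and 0.733 in KO and 0.489, 0.511 and 0.511 in WT libraries. The 2 Tcf12 regions, at 80.9 and 72.2 kb, had log2 ratios of 0.66 and 0.76 at means of 0.469 and 0.415 in KO and 0.296 and 0.245 in WT libraries. Both were weak, at 6 to 18 tags and mean within-list percentiles by significance of 16.5 and 14.9. Their KO and WT values overlapped by the list median and by fold enrichment. The Id3 start had 2.57 ± 0.148 in KO and 2.19 ± 0.0855 in WT libraries, and the Tcf3 start 3.39 ± 0.270 and 2.99 ± 0.0494 (SD, n = 3 each). At the Tcf3 start the direction therefore flips between the scales. At the tallest Lef1 region and the Id2 start, both lower in every KO library by the list median, the shared scale gave 2.22 ± 0.0722 in KO and 2.22 ± 0.0820 in WT, and 2.70 ± 0.231 and 2.68 ± 0.0582. By the deposited fold enrichment 1 of the 26 was lower in every KO library, that 69.6 kb into Satb1 (20.1% of all regions), and 3 were higher (4.54% of all), namely the tallest Tcf7 region, the Mbd3 start in the Tcf3 window and the Lef1 region at 7.72 kb. The Lef1 region and the Mbd3 start were thus both higher in every KO library by the shared scale and by the fold enrichment, and both overlapped by the list median.

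**Figure D4:**
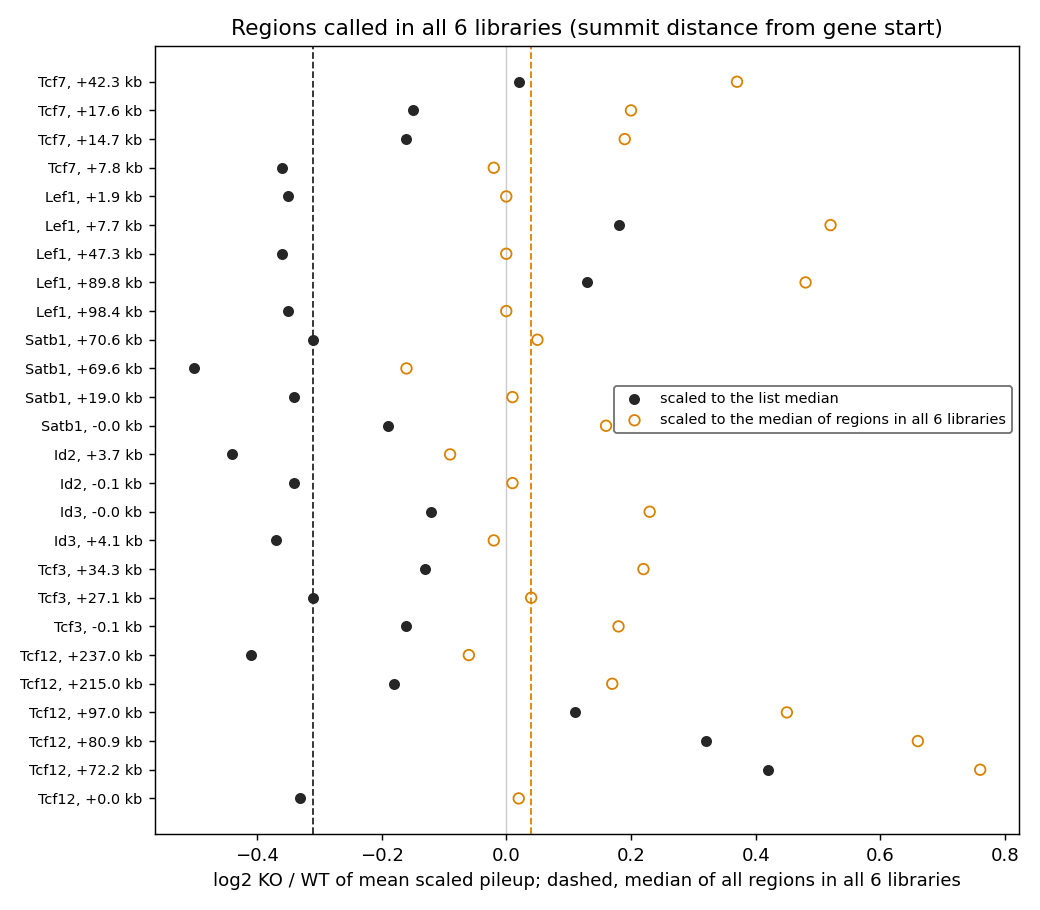
Log2 ratio of the mean scaled pileup of KO to WT libraries (x axis) for the 26 regions called in all 6 libraries (y axis, by gene and distance of the summit from the gene start), filled by list median and open by the median of regions in all 6 libraries. Dashed lines mark the medians of all 29419 such regions, -0.31 and 0.04, and every open point lies to the right of its filled one.

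In 16 of the 26 regions called in all 6 libraries the summits spanned at most 100 bp over the libraries, and the span was widest, 707 bp, in the Lef1 region at 89.8 kb. By position, 7 of the 11 regions at annotated starts (63.6%) were called in all 6 libraries, against 87.9% of such regions over all protein-coding genes with a start window. Elsewhere inside the genes it was 14 of 53 (26.4%), against 35.6%, downstream 5 of 7 (71.4%), against 56.4%, and upstream 0 of 5, against 50%.

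Of 20 partner genes of these factors (beta-catenin, Groucho-type co-repressors, related factors and E protein cofactors), 19 had a peak, as did 74.2% of 21896 protein-coding genes. In every KO library 5 had fewer peaks than in every WT library (15.5% of all genes did) and 0 had more (0.388%), and 18 had a region called in all 6 libraries, as did 65.4% of protein-coding genes. Among the 5 were Tle4, a Groucho co-repressor gene, Tcf7l1 and Tcf7l2, relatives of Tcf7, and Lmo2. Tle4 had 5.33 ± 1.15 peaks in KO and 9.67 ± 0.577 in WT libraries, Tcf7l1 6.33 ± 0.577 and 10.3 ± 1.53, and Tcf7l2 8.0 ± 1.73 and 12.0 ± 1.0 (exact permutation p = 0.1 and adjusted p = 0.629 each, n = 3 each). Ctnnb1, the beta-catenin gene, had 3.0 ± 1.0 and 5.67 ± 1.53 (exact p = 0.2), and Tle3 5.0 ± 1.0 and 7.0 ± 1.0 (exact p = 0.2). Id4 had no peak in any library, whereas Id1 had 2 in each KO library and 2, 2 and 3 in WT libraries.

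By the sum of scaled pileups over a gene in each of the 6 libraries, the most alike of 15244 other protein-coding genes were Cmtm6 for Tcf7 (Euclidean distance 0.0542 on the log2 scale), Vegfb for Tcf3 (0.0694), Col16a1 for Id2 (0.104), Tigd5 for Id3 (0.160), Mef2a for Tcf12 (0.222) and Mbnl1 for Lef1 (0.261). The libraries share their depth in all of these genes.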

How the data were processed

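Per the file headers, the authors ran MACS 2.1.1.20160309 once per library and without a control, at a q-value of 0.05, a shift of -100 bp, an extension to 200 bp and 1 tag per position. Bowtie2 2.3.1, Picard 1.88 and the build mm10 are named in the submitters' processing notes. The deposited pileup is a signal (coverage at the summit) that is not scaled to depth, and fold enrichment, also deposited, is a ratio to the background nearby. The −log10 q-value and −log10 p-value columns deposited hold significance within a library, so a deeper library can call weaker sites, and absence from a list does not show closed chromatin.

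Peaks overlapping by at least 1 bp were merged over the 6 lists. A library with several peaks in a region was given its tallest. Heights were described and not tested. Exact permutation tests (two-sided, all 20 assignments of libraries) compared peak numbers per gene, on every protein-coding gene of the RefSeq table (GRCm38.p6), with Benjamini-Hochberg adjustment. All 7 members and 20 of 20 partner genes were matched. The members, lists and alternatives were chosen with earlier results of these data known. Regions named were the tallest, those at starts, those called in 1 genotype alone and those not overlapping between genotypes, and partner genes the 6 with the largest difference. Of the partner and most alike genes, 2 are not reported here. The regions at 14.7 and 7.80 kb of Tcf7 and those beside the starts of Id2 and Id3 were named to complete the account. Steps were tested on simulated data. Calculations used SciPy 1.17.1, pandas 2.3.3 and NumPy 2.4.6 under Python 3.11.15, with figures by Matplotlib 3.10.9.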

Additional observations from a re-analysis of the deposited data

How the results depend on the processing

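Summed over the 7 genes, the lists held 44.0 ± 6.93 peaks in KO and 63.3 ± 2.08 in WT libraries (SD, n = 3 each), a difference of -19.33. It was 2.33 in equal-length lists, -19.67 with a −log10 q of at least 5 and -21.33 to -15.33 leaving out 1 library. Where at least 50% of a region had to be covered it was -27.33, a difference in regions and not in peaks. A region spans the peaks of all 6 lists, so a library with shorter peaks can miss that mark. Genes with fewer peaks in every KO library numbered 2, against 0 in equal-length lists, 3 with a −log10 q of at least 5 and 2 to 3 leaving out 1 library. The 3 were Lef1, Satb1 and Tcf12, with differences of -7.33, -4.67 and -5.33 (exact permutation p = 0.1 each). With 50% coverage, 4 genes had fewer covered regions in every KO library. Over all genes the share with fewer peaks was 15.5% in the full lists and 1.70% in equal-length lists. It was not counted with a −log10 q of at least 5, with 50% coverage or leaving out 1 library. WT-only regions numbered 5, against 1 in equal-length lists, 5 with a −log10 q of at least 5 and 6 to 9 leaving out 1 library. Of all regions, 4.66% were WT-only in the full lists and 0.966% in equal-length lists. The median log2 ratio of -0.25 was 0.03 in equal-length lists, -0.39 with a −log10 q of at least 5, 0.10 by the shared median, 0.15 by tags kept, 0.02 by fold enrichment and -0.29 to -0.21 leaving out 1 library. Regions lower in every KO library numbered 9, against 1 in equal-length lists, 0 by the shared median, 0 by tags kept, 1 by fold enrichment and 9 to 16 leaving out 1 library. Regions higher in every KO library numbered 0, against 5, 8, 4 and 3 in those 4 settings in the same order, and 0 to 4 leaving out 1 library. The regions compared in these counts numbered 20 in equal-length lists, 26 to 30 leaving out 1 library and 26 in the others. By tags kept, 3.34% of all 29419 regions were lower and 4.70% higher in every KO library. With a −log10 q of at least 5, 11 of 21 regions were lower and 0 higher in every KO library. For these heights, shares of all regions in equal-length lists, at that threshold or leaving out 1 library were not counted. With equal-length lists and the shared median together, chosen after seeing the data, the median was 0.04, with 0 lower and 5 higher regions. Single genes turned round in equal-length lists at Tcf7 (1.33), Lef1 (0.67), Id3 (0.33) and Tcf12 (1.33), per 10000 peaks at Tcf7 (0.32), Id2 (0.09) and Id3 (0.03), and with 2 kb on each side at Id2 (0.33). The cause was not tested.

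The replicate numbers 2 and 4 occur in both genotypes but no label says that they pair libraries, and the deviations of same-numbered libraries correlated at -0.0208 and -0.0519. With these numbers as a block of 2 pairs, the peak difference was -22.50 and the median log2 ratio was -0.18. In both pairs 3 genes and 15 regions were lower and 1 region higher in KO, and 11 regions were WT-only. The rule of 2 pairs is looser than one over all 6 libraries. Shares of all genes and regions under it were not counted, so these counts cannot be set beside those above.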
